A study of Mus musculus with 2 samples.

Results

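The Krueppel-like factors Klf2, Klf3, Klf4, Klf6, Klf7, Klf9, Klf10 and Klf13 were examined, which are 8 of the 32285 gene IDs in both count matrices. They were picked by symbol, with earlier results of these data known, and all 8 were found in both libraries. To study how the lung endothelium responds when tumour cells lodge in it, the study compared lungs of WT C57BL/6 mice 6 h after a tail vein injection of PBS (control) with lungs 6 h after an injection of 400000 B16-F10 cells in 100 microlitres of PBS. B16-F10 cells derive from a skin melanoma of the mouse and were marked with a green dye before injection. Collagenase-digested lungs were sorted for Pecam1+ Ptprc- cells, that is for an endothelial surface protein without the common leukocyte one, and the B16-F10 library also received marked melanoma cells. The labels give 2 mice per treatment and the study's methods a different number. Their cells were combined before library preparation, so each group was 1 library with no replicate, and no test between the groups was possible. Any difference between the 2 preparations and the effect of the injection cannot be told apart.

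Krueppel-like factors are zinc finger transcription factors that bind GC-rich and CACCC sequences. In endothelial cells (ECs), laminar blood flow induces Klf2 and Klf4 through a kinase cascade of MEKK3, MEK5 and ERK5 that acts on the transcription factor MEF2, and both factors keep vessels antithrombotic and quiescent. The other members fall into families by their partners: Klf6 and Klf7 are related to Klf2 and Klf4 as mostly activating factors, Klf3 recruits the corepressor CtBP, and Klf9, Klf10 and Klf13 recruit the corepressor Sin3A. Several of these genes, Klf2, Klf4 and Klf6 among them, are also known to respond quickly to stress, including tissue digestion.

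The upstream sequences of Klf2 and Klf4 are shown because these are the flow-induced pair and their promoters differed in the motifs searched. The sequences were taken from RefSeq on GRCm38.p6 and run 5′ to 3′ on the strand of the gene. Capitals mark a match to the MEF2 consensus. The Klf2 stretch lies at chr8:72318812-72319032 (plus strand) and ends at the base before the annotated gene, and the Klf4 stretch lies at chr4:55532476-55532725 (minus strand) and holds no match.
Klf2: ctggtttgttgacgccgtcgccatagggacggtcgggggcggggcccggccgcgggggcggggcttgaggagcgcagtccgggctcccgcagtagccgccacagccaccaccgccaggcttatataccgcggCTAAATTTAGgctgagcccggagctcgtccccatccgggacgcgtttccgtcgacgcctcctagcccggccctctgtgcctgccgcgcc
Klf4: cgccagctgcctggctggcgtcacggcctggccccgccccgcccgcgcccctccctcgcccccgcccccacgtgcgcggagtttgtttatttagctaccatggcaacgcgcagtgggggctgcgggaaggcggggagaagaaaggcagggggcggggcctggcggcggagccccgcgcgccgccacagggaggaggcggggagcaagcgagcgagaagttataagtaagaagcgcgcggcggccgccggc
Of the 8 genes, 7 had an entry in the RefSeq promoter set, and the 250 bases upstream of the RefSeq start were searched on both strands. The MEF2 consensus was found in Klf2 only, 118 bases before the RefSeq start, and 2.92% of all 32851 promoters held a match. The searched Klf2 bases ended at chr8:72319061, inside the annotated gene and beyond the printed stretch, so the match lies closer to the end of that stretch. CACCC was found in 5 of the 7 (Klf2, Klf3, Klf7, Klf9 and Klf13) and in 52.0% of all promoters. The cyclic AMP response motif TGACGTCA (1.55% of all promoters) and the CArG consensus of serum response factor (1.47%) were found in none of the 7. On GRCm38 the annotated genes, all protein coding, lie at chr8:72319033-72321656 (Klf2), chr5:64803388-64832901 (Klf3), chr4:55527143-55532466 (Klf4), chr13:5861482-5870394 (Klf6), chr1:64029447-64122282 (Klf7), chr19:23141226-23168134 (Klf9), chr15:38291463-38300706 (Klf10) and chr7:63886351-63938915 (Klf13). A match is a description of letters and was not tested as a binding site.

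The control library held 85794655 unique molecular identifiers (UMIs, each marking 1 captured RNA molecule) and the B16-F10 library 104978816. After filtering, 7830 control cells and 7767 B16-F10 cells were clustered, and 18 cell barcodes were shared by both libraries. Vessel types were named from fixed markers and are called by the type followed by "like". General capillary cells (gCap-like) numbered 4492 control and 4180 B16-F10 cells, and aerocytes (aCap-like), the capillary cells that face the alveoli, 1448 and 971. There were 333 and 311 vein-like, 69 and 39 artery-like and 58 and 51 lymphatic (LEC-like) cells. None of the 8 defining markers of a type was at 0 in that type in either library. Kept out of these types were clusters that met an endothelial and a non-endothelial rule (7.70% of control and 14.2% of B16-F10 cells), endothelial clusters with no vessel name (4.44% and 7.2%) and a cluster that met both the gCap and artery rules, cluster 8 (5.48% and 3.98%). Because the naming thresholds were set after a clustering had been seen, these shares depend on that choice. UMIs were summed per vessel type and library and given as counts per 1000000 UMIs of the sum (CPM), with 95% intervals that cover counting error only.

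Klf2 was highest in artery-like and vein-like cells and lowest in LEC-like cells in both libraries. In the control library it stood at 2404 CPM in artery-like, 1811 in vein-like, 819 in aCap-like, 770 in gCap-like and 320 in LEC-like cells. In the B16-F10 library the levels were 2839, 2453, 1126, 981 and 470 CPM in the same order. No neighbouring pair in this order had overlapping intervals, and the span from lowest to highest was 7.51-fold in control and 6.05-fold after injection. The place of artery-like cells depended on which cells received that name. With cells down to 500 genes, with cells under 10% mitochondrial UMIs, without doublet removal or at a finer clustering, artery-like Klf2 was 1192 to 1393 CPM in control and 1200 to 1356 CPM after injection, below the vein-like level and above the aCap-like one. In control the aCap-like level was also below the gCap-like one when cells were thinned to 2000 UMIs (750 and 771 CPM), in a mean of per-cell CPM (723 and 760 CPM) and without low-count clusters (819 and 826 CPM). Artery-like and vein-like cells thus held the most Klf2 RNA per UMI, and LEC-like cells the least.

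Klf4 was ordered differently from Klf2. Control levels were 1029 CPM in aCap-like, 821 in vein-like, 780 in artery-like, 406 in gCap-like and 206 in LEC-like cells. After injection they were 942 CPM in vein-like, 907 in aCap-like, 773 in artery-like, 543 in gCap-like and 150 in LEC-like cells. The intervals of vein-like and artery-like cells overlapped in control, and those of vein-like and aCap-like cells overlapped after injection. Artery-like Klf4 was 410 to 452 CPM after injection under the same 4 settings, below the gCap-like level. LEC-like cells were lowest for Klf4 in both libraries, with a span of 5.0-fold and 6.30-fold.

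Among the relatives of this pair, Klf7, a broadly expressed factor best known from neurons, was highest in aCap-like cells in both libraries (947 and 828 CPM), followed by gCap-like cells (507 and 713). It was lowest in LEC-like cells (291 and 245 CPM), and vein-like and artery-like cells did not differ beyond counting error in either library. Klf6, a factor induced by vascular injury, ranged from 144 CPM in gCap-like to 291 CPM in LEC-like control cells. After injection its intervals overlapped between vein-like (298 CPM), aCap-like (274), LEC-like (268) and gCap-like cells (248) as neighbours in the order, with artery-like cells lowest at 150 CPM. Only for Klf6 did LEC-like cells stand first in the control order, although their interval met that of artery-like cells and vein-like cells stood first after thinning (246 and 216 CPM).

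Klf13, a Sin3A-binding member first described in T cells, was highest in aCap-like cells in both libraries (457 and 499 CPM), and the remaining types lay between 200 and 248 CPM in control and between 233 and 324 CPM after injection. Klf9, a gene induced by glucocorticoids and thyroid hormone, was lowest in aCap-like cells in both libraries (200 and 217 CPM). Klf10, an early target of TGF-beta, was lowest in gCap-like cells (94.9 and 80.5 CPM). Artery-like cells were below them in both libraries with cells under 10% mitochondrial UMIs (88.1 and 81.0 CPM) and after injection without doublet removal (78.6 CPM), and LEC-like cells were below them after injection with thinning (78.4 CPM). Klf3 spanned 1.64-fold in control and 1.52-fold after injection, with artery-like and vein-like cells on top in both libraries, except that artery-like cells were at 211 CPM after injection with thinning. Aerocytes therefore had the most Klf7 and Klf13 and the least Klf9 of the 5 vessel types in each library.

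**Figure D1:**
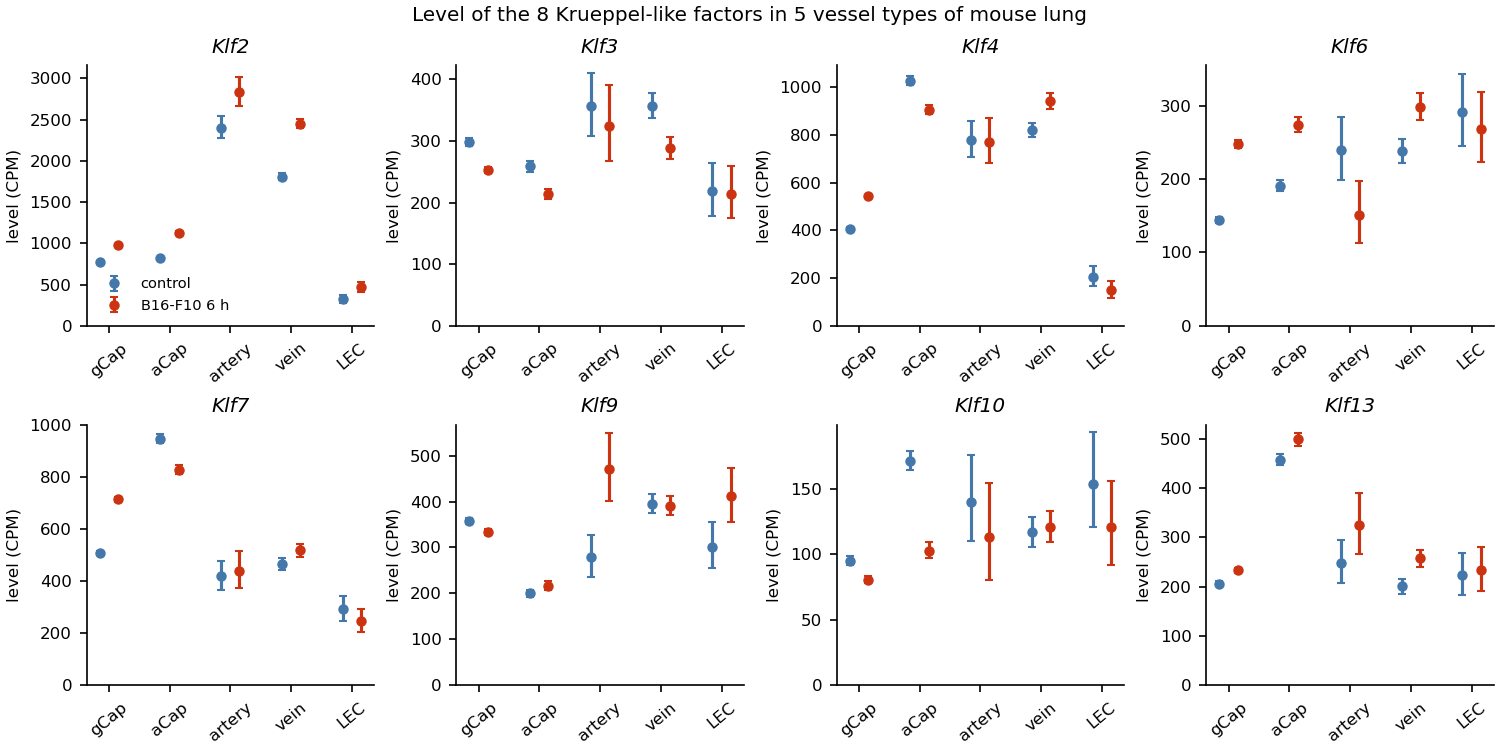
Level of each factor (CPM, linear axis from 0) in the 5 vessel types, in the control library (blue) and the B16-F10 library 6 h after injection (red); points are summed UMIs of 1 library and bars 95% Poisson intervals. Klf2 is highest in artery-like cells (2404 and 2839 CPM), an order that changed with the cell filters, and Klf7 and Klf13 are highest in aCap-like cells.

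Between the libraries, Klf2 was higher after B16-F10 injection in all 5 vessel types, with a sign that depended on the processing in artery-like and LEC-like cells. The log2 ratio of B16-F10 over control was 0.35 in gCap-like cells (95% interval 0.33 to 0.37, from 25658 and 35699 UMIs) and 0.46 in aCap-like cells (0.42 to 0.50, from 10734 and 12266 UMIs). It was 0.44 in vein-like (0.39 to 0.49), 0.24 in artery-like (0.12 to 0.36) and 0.55 in LEC-like cells (0.25 to 0.86). These ratios were all below 1.5-fold. The sign in artery-like and LEC-like cells changed with the processing: in artery-like cells it was -0.0594 with cells down to 500 genes, -0.032 without doublet removal, -0.0390 at a finer clustering and -0.58 in cells without markers of other types (erythroid ones not used), and in LEC-like cells -0.043 after thinning each cell to 2000 UMIs.

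Klf4 did not move in the same direction in all vessel types. It was higher after injection in gCap-like cells, at 406 CPM in control and 543 CPM in the B16-F10 library (log2 ratio 0.42, 0.39 to 0.45), and in vein-like cells (0.20, 0.13 to 0.27, but 0.0905 after thinning). In aCap-like cells it was lower, at 1029 and 907 CPM (-0.18, -0.22 to -0.15), although the ratio was only -0.0151 after thinning to 2000 UMIs and -0.0548 as a mean of per-cell CPM. In LEC-like cells the 99 control and 72 B16-F10 UMIs gave -0.46 (-0.92 to -0.01). Artery-like cells did not differ beyond counting error (-0.01, -0.24 to 0.21). Summed over all ECs the ratio of Klf4 was 0.07. The LEC-like value became 0.068 without doublet removal and 0.81 after thinning.

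Klf6 had the largest ratio of the 8 in gCap-like cells. It stood at 144 CPM in control and 248 CPM after injection, 1.72-fold higher (log2 ratio 0.78, 0.73 to 0.83, from 4803 and 9019 UMIs). The ratio was 0.52 in aCap-like (0.44 to 0.60) and 0.32 in vein-like cells (0.19 to 0.46), while the LEC-like interval held 0 (-0.12, -0.48 to 0.24). In artery-like cells Klf6 was lower after injection, at 239 and 150 CPM (-0.67, -1.16 to -0.19), but this rested on 128 and 52 UMIs and lay between -0.0648 and 0.066 after thinning and under the 4 settings that moved the artery-like level of Klf2. Capillary and vein-like cells thus held more Klf6 RNA after injection, and the artery-like value depended on which cells were kept.

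Klf7 was higher after injection in gCap-like cells, at 507 and 713 CPM (log2 ratio 0.49, 0.46 to 0.52, from 16905 and 25964 UMIs). It was lower in aCap-like cells, at 947 and 828 CPM (-0.19, -0.23 to -0.15), and slightly higher in vein-like cells (0.15, 0.05 to 0.25). Artery-like (0.07) and LEC-like cells (-0.25) did not differ beyond counting error. The distance between the capillary types was therefore smaller after injection than in control.

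Klf3, the CtBP-recruiting repressor, was lower after injection in each vessel type where its interval left 0. The log2 ratio was -0.24 in gCap-like (-0.28 to -0.20), -0.27 in aCap-like (-0.35 to -0.20) and -0.31 in vein-like cells (-0.43 to -0.19). In gCap-like cells this corresponded to 298 CPM in control and 253 CPM after injection. The aCap-like ratio shrank to -0.0667 after thinning to 2000 UMIs. The artery-like (-0.14) and LEC-like (-0.03) intervals held 0.

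Of the Sin3A-recruiting members, Klf10 was lower after injection in both capillary types. In aCap-like cells it stood at 171 and 103 CPM, 1.67-fold lower (log2 ratio -0.74, -0.84 to -0.63, from 2244 and 1118 UMIs), and in gCap-like cells at 94.9 and 80.5 CPM (-0.24, -0.31 to -0.16). The intervals of the other 3 vessel types held 0. Klf13 was higher in gCap-like (0.18, 0.14 to 0.23), aCap-like (0.13, 0.07 to 0.18), vein-like (0.36, 0.21 to 0.50) and artery-like cells (0.38, 0.01 to 0.76), where thinning gave 235 and 237 CPM and so no difference. Klf9 was close to level in gCap-like (-0.10, -0.13 to -0.06) and aCap-like cells (0.11, 0.03 to 0.19), and was higher in artery-like cells at 278 and 472 CPM (0.76, 0.43 to 1.09) and in LEC-like cells (0.45, 0.13 to 0.77). The artery-like ratio of Klf9 was 0.16 to 0.27 under the 4 settings that moved the artery-like level of Klf2. Without the upper limit of genes per cell, the aCap-like ratios of Klf9 and Klf13 were -0.037 and -0.032.

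**Figure D2:**
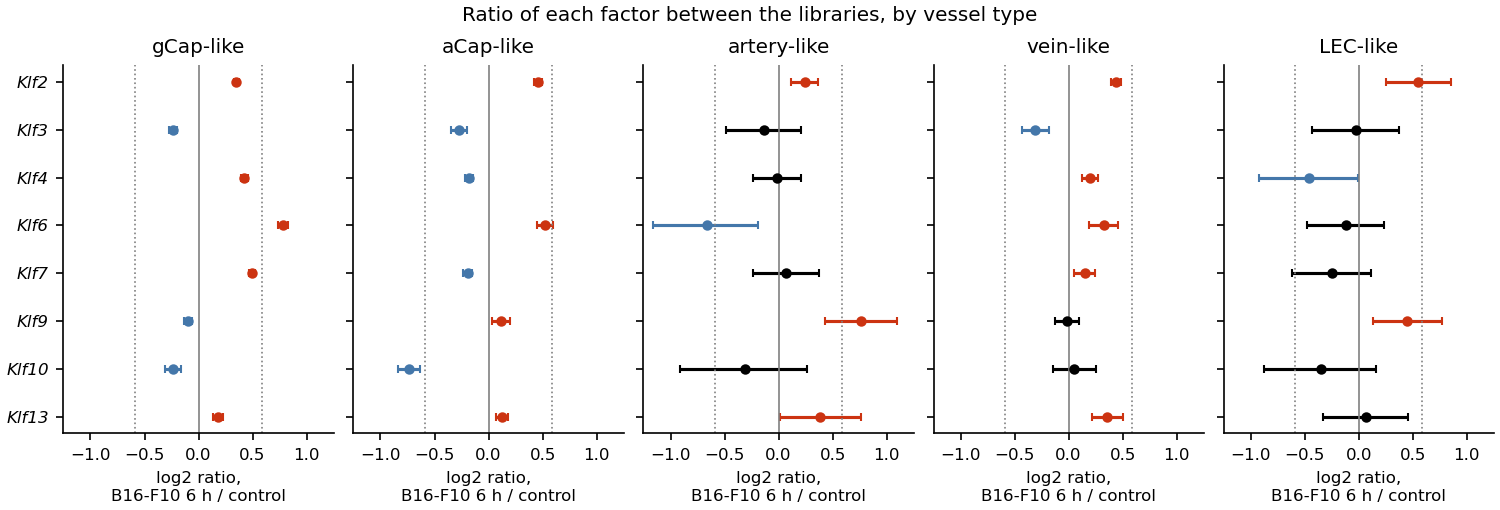
Log2 ratio of each factor, B16-F10 library over control, in the 5 vessel types, with 95% binomial intervals (red, interval above 0; blue, below 0; black, holds 0); dotted lines mark 1.5-fold. Klf2 is to the right of 0 in all 5 types, with a sign that changed with the processing in artery-like and LEC-like cells, while Klf4 and Klf7 are right of 0 in gCap-like (0.42 and 0.49) and left of 0 in aCap-like cells (-0.18 and -0.19).

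Counted over the 8 members, few passed 1.5-fold. In gCap-like cells 1 of 8 was at least 1.5-fold higher (Klf6) and 0 lower, beside 7.74% and 9.55% of the 13088 genes with at least 50 UMIs. In aCap-like cells 0 were higher and 1 lower (Klf10), beside 6.44% and 8.12% of 11104 genes. In artery-like cells 1 was higher (Klf9) and 1 lower (Klf6), beside 9.51% and 7.85% of 3554 genes. No member passed in vein-like cells, beside 5.32% of genes higher and 5.92% lower, or in LEC-like cells, beside 8.4% and 8.42%. In the cluster that met both the gCap and artery rules, 1 was higher (Klf6, log2 ratio 0.69) and 0 lower, beside 8.47% and 7.79% of genes. Counts of 0 or 1 of 8 members are near these shares. The median log2 ratio of the members was 0.27 in gCap-like, -0.03 in aCap-like, 0.03 in artery-like, 0.17 in vein-like and -0.07 in LEC-like cells, beside -0.04, 0.01, 0.01, -0.03 and -0.01 over all genes.

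The gCap-like class comprised 6 clusters, and Klf7 was higher after injection in all 6, with log2 ratios from 0.11 to 0.73. Klf6 was higher in 5 of the 6, with an interval that held 0 in the remaining cluster. Klf2 and Klf4 were each higher in 5 and lower in the same remaining cluster, cluster 4. This cluster was led by Lalba, Tmem252 and Adamts9, with Lalba and Inhbb among the study's reactive capillary (rCap) markers, and held 64 control and 970 B16-F10 cells. In cluster 4 Klf2 stood at 674 CPM in control and 461 CPM after injection (-0.55, -0.71 to -0.39) and Klf4 at 587 and 370 CPM (-0.67, -0.83 to -0.49), whereas Klf7 stood at 646 and 1069 CPM. Cluster 4 was 1.42% of the gCap-like cells in control and 23.2% after injection. Without it the gCap-like ratio was 0.58 for Klf2 and Klf4, 0.77 for Klf6, 0.23 for Klf7 and 0.059 for Klf9. The cluster therefore lowered the class ratios of Klf2 and Klf4 and raised that of Klf7.

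In 3 of the clusters where it was higher after injection, Klf2 stood at 978 and 1319 CPM in cluster 0, at 789 and 1219 CPM in cluster 1 and at 756 and 1149 CPM in cluster 3, control first. Klf3 was lower in 4 of the 6 clusters and higher in none, and Klf10 was lower in 3 and higher in none. Klf13 was higher in 4 and lower in none, and Klf9 was higher in 4 and lower in 1. The small Klf9 ratio of the whole class (-0.10) thus covered clusters with ratios from -0.20 to 0.42.

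In the aCap-like class different clusters held most of the cells of each library: cluster 6 held 173 control and 790 B16-F10 cells, cluster 7 held 647 and 103, and cluster 9 held 628 and 78. Klf2 was higher after injection in cluster 6 (0.68) and cluster 7 (0.24), and its interval in cluster 9 held 0. Klf4 differed in sign between them, with 654 and 903 CPM in cluster 6 (0.46), 1393 and 1134 CPM in cluster 7 (-0.30) and 585 and 428 CPM in cluster 9 (-0.45). Klf7 likewise was higher in cluster 6 (0.16) and lower in cluster 7 (-0.21). The Klf10 ratio was 0.03 in cluster 6, with an interval that held 0, but -0.68 in cluster 7 and -0.92 in cluster 9. For Klf3 the intervals of all 3 clusters held 0, with ratios from -0.16 in cluster 7 to 0.13 in cluster 6. Within cluster 6, which held most B16-F10 cells of the class, Klf4, Klf7 and Klf10 were thus not lower after injection.

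A further endothelial cluster without a vessel name, cluster 14, was led by Csf2, Sox9 and Fosl1 and held 6 control and 308 B16-F10 cells. In its B16-F10 cells Klf2 stood at 221 CPM and Klf4 at 68.4 CPM, both below their levels in each gCap-like and aCap-like cluster of that library. Klf7 stood at 1161 CPM there, above each of those clusters. Klf3 stood at 83.1, Klf6 at 201, Klf9 at 146, Klf10 at 154 and Klf13 at 139 CPM. Of the 6 gCap-like clusters, cluster 4 had the lowest Klf2 and the highest Klf7 in the same library. With 1 library per group, a cluster mostly of 1 library may be that library and not a cell type.

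**Figure D3:**
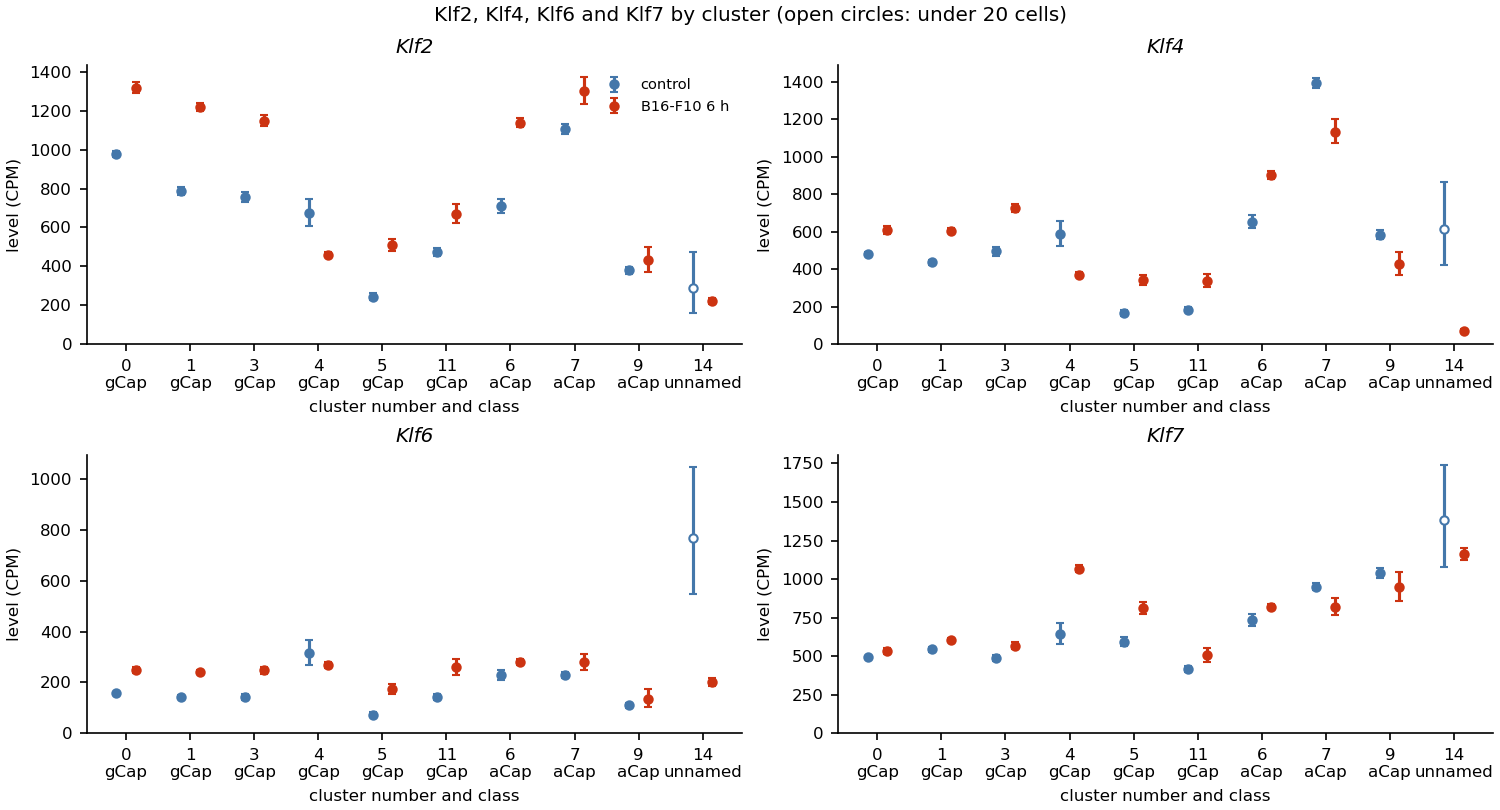
Level (CPM, linear axis from 0) of Klf2, Klf4, Klf6 and Klf7 in each gCap-like and aCap-like cluster and in the unnamed cluster 14, in control (blue) and B16-F10 (red) cells, with 95% Poisson intervals; open circles rest on under 20 cells. In cluster 4 Klf2 and Klf4 are lower (461 and 370 CPM) and Klf7 higher (1069 CPM) after injection than in control, and cluster 14 has the lowest Klf4 (68.4 CPM).

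To follow the members along the capillary response without relying on clusters, gCap-like cells were thinned to 2000 UMIs and ordered by their summed UMIs of the study's 50 rCap markers, none of which is a Krueppel-like factor. The study chose this list partly on these libraries, so the order is not independent of the comparison, and the cells were split at the quartiles of this score into 4 bins, of which the top held 139 control and 1904 B16-F10 cells. In B16-F10 cells Klf2 stood at 905, 1128, 1179 and 835 CPM from the lowest to the highest bin. Klf7 stood at 566, 599, 561 and 872 CPM. The top bin thus had the highest Klf7 of the library, with an interval apart from those of the other bins, and the lowest Klf2, with an interval that met that of the lowest bin.

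Klf9 shared the drop of Klf2 in the top bin, with 361, 393, 389 and 264 CPM. Klf10 went the other way, with 46.4, 65.0, 71.0 and 98.0 CPM. Control Klf10 was higher in each bin, at 99.8, 95.2, 83.5 and 137 CPM. It was also highest in the top bin, with an interval that met that of the lowest bin. Klf6 differed less along the score, from 224 to 257 CPM, and lay above its control level in every bin, where control cells had 133 to 155 CPM. Control cells showed no drop of Klf2 in the top bin (724, 807, 795 and 914 CPM) and no gain of Klf7 (526, 492, 464 and 475 CPM). Klf6 was the only member whose intervals did not meet between the libraries in any bin.

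**Figure D4:**
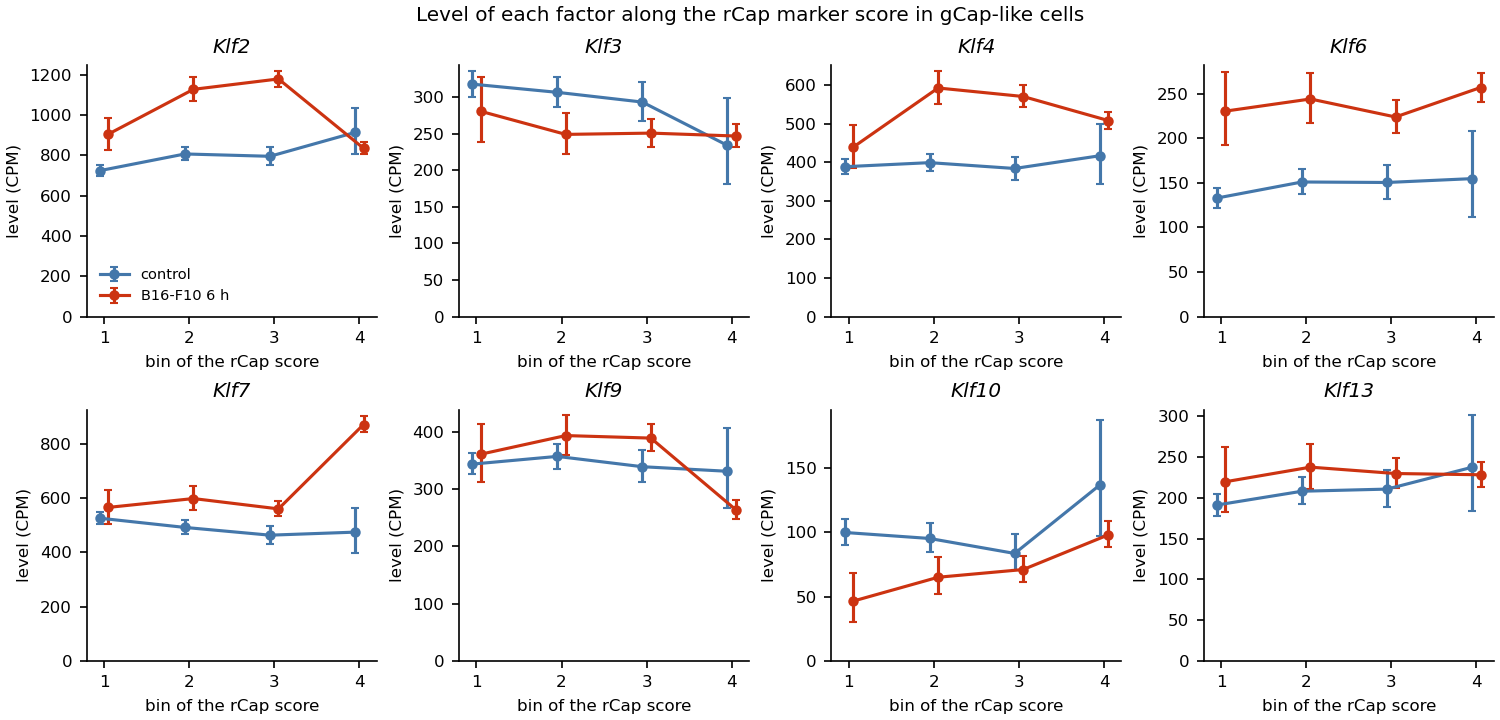
Level (CPM, linear axis from 0) of each factor in gCap-like cells thinned to 2000 UMIs, by bin of the rCap marker score (1 lowest, 4 highest), in control (blue) and B16-F10 (red) cells with 95% Poisson intervals. In the top bin of the B16-F10 library Klf2 is at 835 CPM and Klf7 at 872 CPM, and Klf6 is above control in all 4 bins.

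The share of cells with a UMI gave the same order of the libraries for the leading members in gCap-like cells. It did not for Klf4 in aCap-like cells, where the CPM was lower after injection. There the share was 70.9% in control and 73.6% after injection with thinning (89.6% and 94.6% without), with overlapping thinned intervals. LEC-like Klf4, also lower in CPM, had shares of 17.2% and 29.4% with thinning but 55.2% and 52.9% without. At 2000 UMIs per cell, Klf2 was found in 64.6% of control and 68.7% of B16-F10 gCap-like cells (87.7% and 88.5% without thinning), Klf4 in 44.3% and 53.2% (71.2% and 82.8%), Klf6 in 23.0% and 33.6% (53.3% and 71.7%) and Klf7 in 58.9% and 69.6% (90.7% and 96.2%). Free RNA was estimated to be 2.64% of control and 4.10% of B16-F10 UMIs in gCap-like cells, enough to put a Klf2 UMI in 3.66% and 7.12% of thinned cells. In melanoma-like cells of the B16-F10 library, which are not endothelial, Klf2 was found in 7 of 77 thinned cells (9.09%), Klf7 in 2 (2.60%) and Klf9 in 0, which allows a share of up to 3.90% at this thinned depth. Without thinning Klf9 was found in 6.41% of these cells. The median depth was 8412 UMIs in gCap-like and 8040 UMIs in melanoma-like cells of that library. The shares in capillary cells were thus far above both the free RNA estimate and the melanoma-like cells.

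Within gCap-like cells Klf2 and Klf4 went together from cell to cell more than any other pair of members. Over 4431 control and 4152 B16-F10 cells thinned to equal depth, Pearson's r between their log(UMIs + 1) was 0.29 in each library. The r of the other pairs was at most 0.11. Cells of 1 library share its preparation and depth, and these counts are sparse, so r is given as a description. On the same log scale, the r of Klf2 with the summed UMIs of the dissociation genes described next was 0.35 in control and 0.17 after injection. That of Klf4 was 0.25 and 0.21.

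Genes that respond to tissue dissociation differed between the libraries alongside the members. Among all genes of gCap-like cells 7.74% were at least 1.5-fold higher and 9.55% lower. Of 22 measured immediate early and heat shock genes that respond to dissociation, 14 were higher and 2 lower there. Their median log2 ratio was 0.92, with Egr1 (3.76), Atf3 (2.74) and Fos (2.30) highest and Hspa1b (-1.47) and Hspa1a (-0.74) lowest. Their summed level was 3802 CPM in control and 6984 CPM after injection in gCap-like, 4483 and 6612 in aCap-like, 5739 and 9680 in vein-like, 8083 and 7461 in artery-like and 2192 and 2767 CPM in LEC-like cells. The sign of the Klf2 ratio changed with the processing in artery-like cells, where this sum was lower after injection, and in LEC-like cells, where it was higher. In cluster 4 the sum was 6413 and 8866 CPM, control first, while Klf2 and Klf4 were lower after injection. In the other gCap-like clusters the sum, Klf2 and Klf4 were all higher. In aCap-like cluster 7 the sum was 6114 and 9265 CPM, with Klf2 higher and Klf4 lower. The part of dissociation in the ratios of Klf2, Klf4 and Klf6 was not tested. Markers of other cells differed as well. The 6 summed erythroid markers stood at 528 and 3341 CPM in vein-like cells, control first, at 1242 and 1465 in gCap-like, 679 and 1085 in artery-like and 657 and 1076 CPM in LEC-like cells. In aCap-like cells their sum was lower after injection, at 1992 and 1095 CPM. None of the 6 was at 0 in the capillary types, 1 was at 0 in vein-like cells of each library, and 1 or 2 in artery-like and LEC-like cells. In gCap-like cells the sum was 26.4 and 51.4 CPM for 8 melanoma markers, of which 4 were at 0 in control, and 19.2 and 34.2 CPM for 8 myeloid markers, none at 0. In cells without a UMI of platelet, mural, leukocyte or melanoma markers, the gCap-like ratios were 0.39 for Klf2, 0.48 for Klf4, 0.81 for Klf6 and 0.48 for Klf7.

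The cascade upstream of Klf2 and Klf4 showed no member past 1.5-fold in gCap-like cells, where 7.74% of all genes were higher and 9.55% lower. For a list of 14 genes a count of 0 is near these shares. This list of 14 genes, with the kinases MEKK3 (Map3k3), MEK5 (Map2k5) and ERK5 (Mapk7), the MEF2 factors and the brake of the CCM proteins, had a median log2 ratio of -0.09. Map3k3 stood at 239 and 203 CPM, Mapk7 at 10.3 and 11.6 CPM and Mef2c at 213 and 149 CPM, control first. These 3 are named as representatives of the cascade and were picked with their values in view. Of 16 flow sensors 1 was at least 1.5-fold higher (Sdc4, a syndecan, 0.74) and 0 lower, with a median of 0.00. Of 7 measured genes of YAP and TAZ, which respond to disturbed flow, 1 was higher (Tead1, 0.66) and 0 lower. Counts of 0 or 1 in lists of this size are likewise near the shares of all genes.

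Downstream, genes known to be induced by KLF2 or KLF4 had a median ratio near 0 as a group in gCap-like cells. Of 12 measured, 1 was at least 1.5-fold higher (Gja4, which encodes a gap junction protein of arteries, 149 and 241 CPM, log2 ratio 0.69) and 0 lower, with a median of 0.03. Of 8 measured genes known to be repressed by them, 5 were higher and 2 lower, beside 7.74% and 9.55% of all genes, with a median of 2.00. The higher ones included the adhesion molecules P-selectin (Selp, 5.73) and E-selectin (Sele, 3.83). Both were near 0 in control, with Selp at 0.24 and 12.7 CPM and Sele at 0.54 and 7.69 CPM, control first. Edn1, which encodes the vasoconstrictor endothelin 1, was lower, at 368 and 183 CPM (-1.01), as was the Tie2 ligand Angpt2 (-1.10). In gCap-like cells the repressed set was thus split, with adhesion genes higher and Edn1 and Angpt2 lower. The B16-F10 library also held more Klf2 and Klf4 there. In aCap-like cells 5 of 12 induced genes and 3 of 6 repressed ones were higher and 0 lower, beside 6.44% and 8.12% of genes. In vein-like cells 3 of 11 and 6 of 9 were higher and 0 lower, beside 5.32% and 5.92%. For artery-like cells this was 0 of 10 and 2 of 5 higher and 0 lower, beside 9.51% and 7.85%. Among LEC-like cells 0 of 6 and 0 of 1 were higher and 1 induced gene lower, beside 8.4% and 8.42%.

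Lists related to the remaining members were counted in the same gCap-like cells, where 7.74% of all genes were higher and 9.55% lower. Of 12 glucocorticoid-responsive genes, to which Klf9 is related as a target, 6 were at least 1.5-fold higher and 0 lower (median 0.60), led by the metallothioneins Mt2 (5.78) and Mt1 (4.61) and by Cebpd (2.16), while Klf9 was at -0.10. In control the metallothioneins were at only 0.24 (Mt2) and 2.04 CPM (Mt1). These leading genes also respond to metals, inflammation and the acute phase. Of 11 TGF-beta-responsive genes, 2 were higher (Pmepa1, 0.60, and Ltbp2, 0.60, the latter from 2.34 to 3.54 CPM) and 3 lower, namely Id2 (-1.51) and the inhibitory Smad6 (-0.91) and Smad7 (-0.63), beside -0.24 for Klf10. Of 13 measured clock genes 0 were higher and 7 lower, with Per2 (-1.77), Hlf (-1.55) and Cry2 (-1.09) lowest. These are low levels, with Per2 at 1.59 and 0.467 CPM. Of the 9 measured genes of the rest of the family, KLF and SP factors together, 0 were higher and 1 lower (Klf15, -1.26, from 3.15 to 1.32 CPM), with a median of -0.42. The 8 members described here had a median of 0.27 in the same cells. They were chosen with earlier results of these data known, so nothing is concluded from the distance between these medians.

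**Figure D5:**
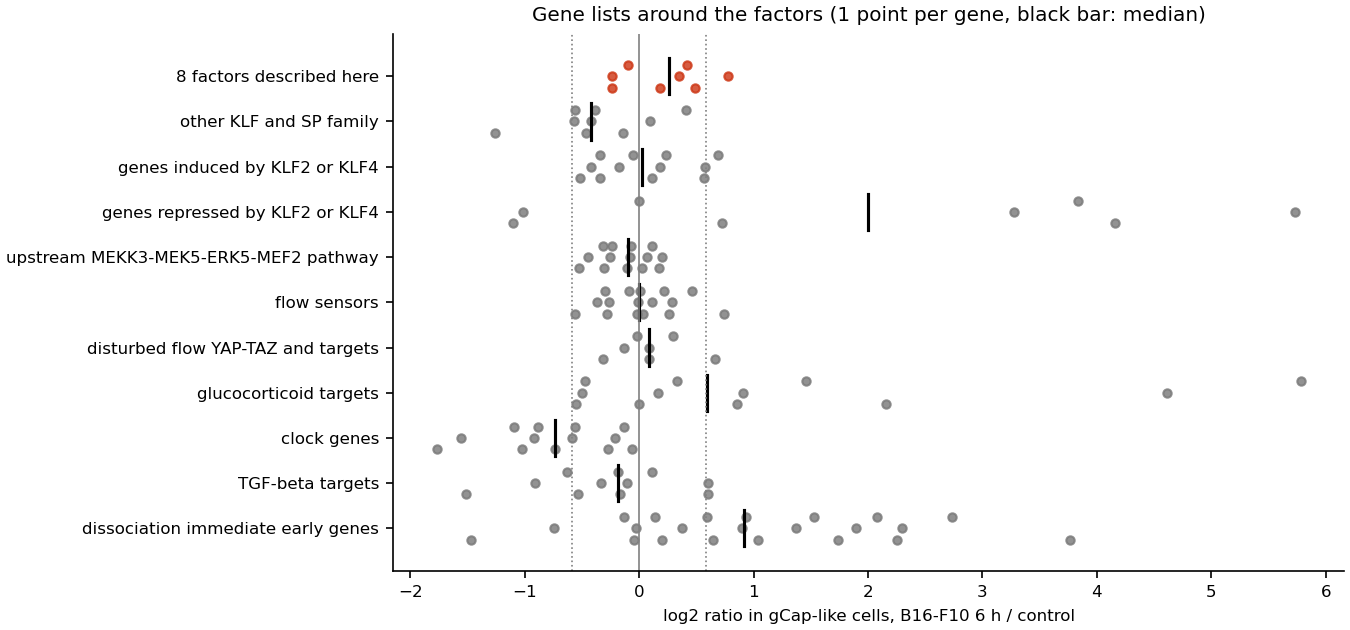
Log2 ratio in gCap-like cells (B16-F10 library over control) of the 8 factors (red) and of the genes of the lists around them (grey, 1 point per gene with at least 50 UMIs); black bars mark medians and dotted lines 1.5-fold. The genes upstream of Klf2 and Klf4 lie within 1.5-fold (median -0.09), beyond which 7.74% of all genes were higher and 9.55% lower. Those known to be repressed by KLF2 or KLF4 spread from -1.10 to 5.73, the latter for Selp at 0.24 CPM in control.

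Outside the endothelium, Klf2 was also found in leukocytes that had passed the sort. In the B16-F10 library it stood at 2896 CPM in 19 neutrophil-like, 1690 in 38 B-cell-like, 1369 in 26 T- and NK-like and 1013 CPM in 34 myeloid-like cells. The capillary levels of Klf2 lay below the neutrophil-like, B-cell-like and T- and NK-like ones. Klf4 was low in lymphocytes, at 65.6 CPM in B-cell-like and 86.1 CPM in T- and NK-like cells, and Klf9 rested on at most 8 UMIs in each lymphocyte and neutrophil-like class. In 78 melanoma-like cells the members with a UMI lay between 6.04 CPM (Klf9) and 47.1 CPM (Klf2), and Klf10 had none in 828086 UMIs. In that library every member was at a higher level in each of the 5 vessel types than in the melanoma-like cells.

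Genes with the most similar pattern were sought for each member over the 5 vessel types in both libraries, that is 10 points of log2(CPM + 1), among 13088 genes. The points share 2 libraries and their smallest class holds 39 cells, so Pearson's r is a description only. Klf2 was closest to Calml4 (0.98), Mapkapk3 (0.96) and Syt7 (0.95), and Klf4 to Bcam, Lims2 and Rab4a (each 0.96). Klf6 was closest to Cdh23 (0.93), Ap1s1 (0.89) and Atn1 (0.84), and Klf7 to Saraf, Krt80 and Nes (each 0.97). Klf3 was closest to Id2 (0.97), Gm49417 (0.96) and Fmo2 (0.95), and Klf9 to Castor1 (0.94), Micall1 (0.93) and Agrn (0.93). Klf10 had the weakest match, with Hspa1b (0.83), Tob1 (0.82) and Mcm9 (0.81), and Klf13 was closest to Shisa5 (0.96), Gadd45b (0.95) and Mgst3 (0.94). Among the members themselves, Klf2 went with Klf4 (0.78) and Klf3 (0.77), Klf4 went with Klf7 (0.77), and Klf9 ran opposite to Klf13 (-0.66) and Klf7 (-0.61).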

How the data were processed

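Single-cell RNA was measured in 1 library per group from sorted mouse lung cells. The authors deposited raw UMI counts per gene and barcode for all barcodes (1597090 and 1779952), which the submitters' processing notes credit to Cell Ranger 7.2.0 with mm10, and the deposited counts were neither normalized nor filtered. The study's methods name an earlier Cell Ranger version and the labels a kit with fewer barcodes, so whether intronic reads were counted is not given in the sources used here, and counting them would raise long genes. Gene positions are from GENCODE M21 on GRCm38, the build of mm10.

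The limits of the study were used for cells: 1000 to 5000 genes and less than 20% of UMIs from mitochondrial genes. Scrublet in scanpy 1.11.5 removed 564 control and 554 B16-F10 cells as doublets (0.8% per 1000 cells), in place of the study's caller. Of 3000 variable genes, 2915 were used once the members and all response lists were left out. Cells were clustered on 30 components and 20 neighbours with leidenalg 0.10.2 at resolution 0.8 into 25 clusters. A class needed at least 3 markers and more than 50% of its list, each 1.5-fold above the other clusters and in at least 10% of cells. Of several vessel classes 1 was taken where it led by at least 2 markers. A vessel name was withheld where another class had more markers among the top 10 genes of the cluster. Cluster 13 (170 control and 221 B16-F10 cells), with 7 gCap markers, stayed unnamed by this rule. ECs needed 6 of 8 endothelial markers in at least 50% of cells.

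UMIs were summed per class and library. CPM carry exact Poisson 95% intervals, log2 ratios (no pseudocount) exact conditional binomial intervals and shares Clopper-Pearson intervals, all for counting error only. Free RNA was estimated from barcodes with 1 to 100 UMIs. Steps were tested on simulated data. Since a group was 1 library, no test was run and no p-value is given. A gene counted as higher or lower past 1.5-fold with at least 50 UMIs over both sums. The members and lists were chosen with earlier results of these data known, and the naming thresholds were adjusted once an early clustering had been inspected. All members were named, from each other list at most 3 genes per direction past 1.5-fold in gCap-like cells with the largest change, and per member the 3 genes of the highest correlation. 1 gene that this rule names is not reported here. Alternatives changed the cell filters, doublet removal, resolution, clustering genes, thinning, averaging, scaling, free RNA, other-cell markers, low-count clusters, and the limits of fold and UMIs.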

Additional observations from a re-analysis of the deposited data

Results flagged for a closer look

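In 4 of the 8 factors the intervals of some vessel types lay above 0 and those of others below 0 in the same comparison. The share of all genes with such a split is not given here. None of these differences between vessel types was tested, since each group is 1 library. The log2 ratio of Klf4 (B16-F10 over control) was 0.42 in gCap-like and 0.20 in vein-like cells, against -0.18 in aCap-like and -0.46 in LEC-like cells. For Klf7 it was 0.49 in gCap-like and 0.15 in vein-like cells, against -0.19 in aCap-like cells. Klf6 was at 0.78 in gCap-like, 0.52 in aCap-like and 0.32 in vein-like cells, against -0.67 in artery-like cells, where it rested on 128 and 52 UMIs. For Klf9 the gCap-like value of -0.10 stood against 0.76 in artery-like, 0.45 in LEC-like and 0.11 in aCap-like cells. Several of these signs depended on the processing. After thinning, Klf4 was 0.81 in LEC-like and -0.0151 in aCap-like cells. Artery-like Klf6 was 0.066 with cells under 10% mitochondrial UMIs. Klf9 was 0.059 in gCap-like cells without cluster 4 and -0.037 in aCap-like cells without the upper limit of genes.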

How the results depend on the processing

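Intervals cover counting error only, artery-like and LEC-like classes are small, and 1 library per group leaves the spread between animals unmeasured. No paired analysis was possible because either group was a single library and no result comes from a test. Of 496 ratios under alternatives, 18 reversed, 64 moved by more than counting error and 414 did not. Sign changes of ratios whose main interval held 0 are not among the 18. Artery-like Klf7, for example, changed sign in 5 of 12 alternatives and LEC-like Klf3 in 4 of 12. Cells without any marker of other types, which left 24 and 4 gCap-like cells of control and B16-F10, gave 0.18 for Klf3, -0.31 for Klf7, 0.63 for Klf10 and -0.11 for Klf13, a median of 0.40 and 4 members higher. The same restriction without erythroid markers, chosen after seeing the data, gave gCap-like a median of 0.31, artery-like -0.58 for Klf2 and 0 lower, and LEC-like (6 and 3 cells) -1.80 for Klf2, 0.58 for Klf4, a median of 0.70, 4 higher and 2 lower. Leaving out gCap-like cluster 4, also chosen after seeing the data, gave 0.059 for Klf9 and a median of 0.22. In gCap-like cells the median was 0.31 when scaled by the median ratio and 0.21 without low-count clusters. With no upper limit of genes, aCap-like Klf9 was -0.037, Klf13 -0.032 and the median -0.10. That median was 0.074 after thinning to 2000 UMIs and 0.089 as a mean of per-cell CPM, which gave 2 members higher. Artery-like Klf2 was -0.0594 with at least 500 genes, -0.032 without doublet removal and -0.0390 at resolution 1.6. Artery-like Klf6 was 0.066 under 10% mitochondrial UMIs and 0.021 without doublet removal. Artery-like members higher numbered 0 with at least 500 genes, no upper limit, under 10% mitochondrial UMIs, no doublet removal, resolution 1.6 or thinning. Those lower numbered 0 with at least 500 genes, under 10% mitochondrial UMIs, no doublet removal, resolution 1.6, response genes kept in clustering or a mean of per-cell CPM. The vein-like median was 0.086 after thinning. LEC-like Klf2 was -0.043 after thinning, Klf4 was 0.068 without doublet removal and 0.81 after thinning, with 1 member higher in each setting and 2 lower after thinning. At a fold of 2, 0 members were higher in gCap-like and artery-like and 0 lower in aCap-like and artery-like cells. At the laxer limit tried, a log2 ratio of 0.32, members higher numbered 4 in gCap-like, 2 in aCap-like, 2 in artery-like, 3 in vein-like and 2 in LEC-like cells, and 2 were lower in LEC-like cells. None of the counts of members under these alternatives, at a fold of 2 and at a log2 ratio of 0.32 included, has a share of all genes under the same setting beside it here. They are therefore not read as a result about the members. The causes of the changes with the processing were not tested.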
